A study of Homo sapiens with 8 samples.

Results

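The genes described here encode actin, non-muscle myosin II and the proteins that bind and remodel actin filaments. They were chosen by gene symbol, 46 genes by name, and all 46 were found in both the deposited count table and the deposited FPKM table. Each table lists 16383 genes, of which 14707 are in both. The libraries came from MDA-MB-231, a human cell line from breast cancer with mesenchymal features, grown in DMEM with 10% fetal bovine serum and antibiotics. Cells of the treated group received 5 µM cyclic di-GMP (c-di-GMP), a bacterial second messenger that binds the innate immune sensor STING, for 24 h. Cells of the control group received its vehicle, PBS, for the same time, and each group gave 4 RNA-seq libraries. The title names metastasis and the proteasome subunit PSMD3, and the comparison asked which transcripts differed after the treatment. All cells were of this 1 line, and no genetic change was described for either group. The replicates are not described as separate cultures, so that a p-value here reflects the spread of these libraries, which may be no more than technical.

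Actin exists as monomers and as filaments, and cells shift it between the forms. Thymosin and profilin bind monomers, cofilin and gelsolin cut or dismantle filaments, and the Arp2/3 complex starts new branches when WASP and WAVE proteins activate it. Filamins and fascin tie filaments into networks and bundles, ezrin, radixin, moesin and MARCKS join them to the plasma membrane, and tropomyosins and calponins lie along their sides. Non-muscle myosin II, switched on by phosphorylation of its regulatory light chains, pulls on filaments. In breast cancer cells of mesenchymal form this machinery drives protrusion, contraction and invasion. Several of its genes are textbook targets of serum response factor (SRF), whose cofactors of the MRTF family are held back by monomeric actin.

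The libraries held 16151360 to 18040010 counts assigned to genes, so that a count of 3 corresponded to 0.166 to 0.186 CPM (counts per 1e6). These values and the marker levels of this paragraph are per library total, without TMM factors. In later paragraphs CPM is scaled by TMM factors. The factor was 0.664 for vehicle replicate 3 and 1.05 to 1.07 for the other libraries, so scaling would raise its marker levels relative to the rest. The mesenchymal markers VIM, FN1, ZEB1 and AXL summed to 2550 to 2600 CPM with c-di-GMP, to 2530 to 2620 CPM in vehicle replicates 1, 2 and 4 and to 1940 CPM in vehicle replicate 3. Within that sum VIM stood at 753 to 813 CPM with c-di-GMP and at 638 to 677 CPM in vehicle replicates 1, 2 and 4, and AXL at 1130 to 1160 and 1240 to 1320 CPM. Of 5 epithelial and luminal markers, 3 were listed, and CDH1, EPCAM and ERBB2 summed to 104 to 110 CPM with c-di-GMP and to 87.2 to 129 CPM with vehicle. CDH1, the epithelial cadherin, held 2.51 to 4.11 CPM with c-di-GMP, above the 1.07 to 2.27 CPM of all 4 vehicle libraries. ERBB2 went the other way, at 87.5 to 91.4 CPM with c-di-GMP and 103 to 115 CPM in vehicle replicates 1, 2 and 4. EPCAM overlapped, at 14.1 to 15.9 CPM and 11.7 to 14.4 CPM in the same libraries. In vehicle replicate 3 ERBB2 stood at 47.1 CPM and EPCAM at 39 CPM. The part of these markers in the results was not tested. MYH11, the smooth muscle myosin, stood at 0.178 to 3.16 CPM, and PECAM1 and PDGFRB of endothelium and fibroblasts together at 13.2 to 18.8 CPM. Of the 8 libraries, vehicle replicate 3 was unlike the rest throughout. The 46 genes took 2.84%, 2.79%, 2.83% and 2.82% of all counts with c-di-GMP, 3.04%, 2.90% and 2.95% in vehicle replicates 1, 2 and 4, and 4.48% in vehicle replicate 3. Log2 fold changes are therefore given without and with that library for each of the 46 genes. In bulk RNA, a lower level in every cell and fewer cells that carry the transcript cannot be told apart.

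With all 8 libraries none of the 46 genes passed a test of the difference between the groups. By the quasi-likelihood test of edgeR, with p-values adjusted by Benjamini-Hochberg over all genes, 0 of the 46 passed the threshold of 0.05, against 0% of the 15415 genes tested. DESeq2 also called 0 of the 46, against 0.869% of all genes, but gave no adjusted p for 7 of the 46 (TMSB4X, TMSB10, ARPC3, ARPC4, TPM2, MYL6 and MYL12B) or for 29.3% of all genes, which it could not call. By limma-voom 0 of the 46 passed. At an unadjusted p under 0.05 edgeR listed 3 of the 46, against 6.23% of all genes, and all 3 were on the lower side: gelsolin (GSN), MARCKS and the tropomyosin gene TPM2. Their log2 fold changes, c-di-GMP over vehicle, were -0.33 ± 0.13 (SE), -0.95 ± 0.37 and -1.66 ± 0.72, each with an edgeR adjusted p of 0.623. The values of the groups did not overlap for 8 of the 46 genes, against 14.2% of all genes: ACTB, GSN, ACTR2, MARCKS, TPM1, TPM2, CNN3 and MYL9. The biological coefficient of variation over all genes was 36.3% with vehicle replicate 3 and 4.52% without it.

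Without vehicle replicate 3, actin genes differed in both directions and by small amounts. Of the 46 genes, 14 were higher with c-di-GMP (30.4%, against 13.5% of the 15647 genes tested), 10 were lower (21.7%, against 16.2%) and 22 did not pass, by edgeR's quasi-likelihood test with an adjusted p under 0.05. These 24 of 46, against 29.6% of all genes, were all changes of less than 1.5-fold, up to 1.38-fold for filamin C (FLNC). The median log2 fold change over the 46 was 0.022, beside 0.0014 over all genes tested. Among the 46, the groups did not overlap for 27 (58.7%, against 36.1% of the 15415 genes tested with 8 libraries). Monomer-binding genes and Arp2/3 subunits stood mainly among those higher, and the crosslinkers, MARCKS and the myosin heavy chain MYH9 among those lower. Across all genes fold changes followed the GC content of transcripts, so the log2 fold change of each of the 46 is also given GC-corrected, that is, with each library's own GC trend taken out. GC-corrected, 13 of the 46 were higher (against 8.58% of all genes) and 8 lower (against 6.62%). With this correction the groups did not overlap for 19 of the 46, a count not made over all genes. Of the 24 calls, 14 were also made GC-corrected, all in the same direction, 10 were not, and 7 further genes passed only with the correction. A correction for GC content and gene length together left 11 higher (against 7.66%) and 6 lower (against 5.74%). When vehicle replicate 3 was put back, 11 of the 24 had fold changes that pointed the other way, 9 of the genes that were higher and 2 of those that were lower. Among the 66 other genes of the actin cytoskeleton described below, 13 of 32 called genes turned sign in this way. Calls kept with the GC correction and signs that turned were not counted over all genes.

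**Figure D1:**
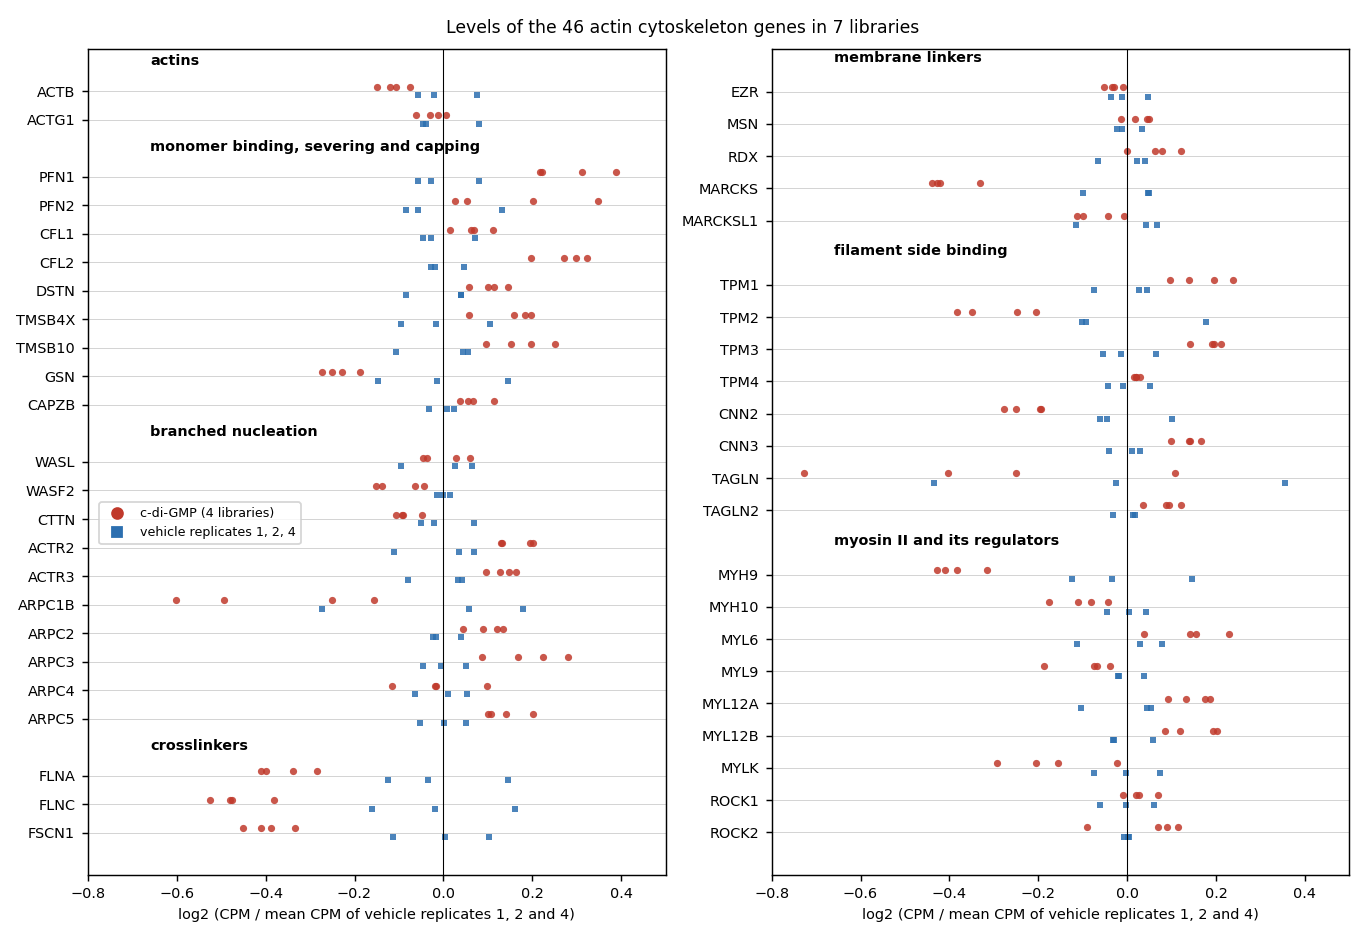
Level of each of the 46 genes in each of 7 libraries, as log2 of the CPM over the mean CPM of vehicle replicates 1, 2 and 4, grouped by role; circles are c-di-GMP libraries and squares vehicle libraries. The circles lie left of the squares for FLNA, FLNC, FSCN1, MARCKS and MYH9 and right of them for PFN1, CFL2 and TPM3, and the widest scatter is that of TAGLN and ARPC1B, the genes with the lowest levels.

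The cytoplasmic actins, ACTB (ENSG00000075624, GRCh38 chromosome 7, 5527147 to 5563784) and ACTG1 (ENSG00000184009, chromosome 17, 81509971 to 81523847), build most filaments of non-muscle cells and were among the most abundant transcripts of the group. Per gene length, ACTB averaged 1438 ± 30.5 FPKM with c-di-GMP and 1539 ± 74.3 FPKM with vehicle (SD, n = 4 and 3), and ACTG1 997 ± 18.9 and 1003 ± 50.4 FPKM. By library ACTB stood at 5202, 4943, 5089 and 5044 CPM with c-di-GMP, against 5777, 5269.5 and 5403 CPM in vehicle replicates 1, 2 and 4 and 8507 CPM in vehicle replicate 3. All 4 c-di-GMP libraries lay below all 4 vehicle libraries. The log2 fold change was -0.12 ± 0.043 (SE) in the 7 libraries and -0.016 ± 0.032 GC-corrected (edgeR adjusted p = 0.0443 and 0.800), and -0.30 ± 0.21 with all 8 (adjusted p = 0.631). The call of ACTB was lost without c-di-GMP replicate 1, 2, 3 or 4 or vehicle replicate 1 or 4, at -0.14 to -0.076, and was kept only without vehicle replicate 2. ACTG1 stood at 3052, 2913, 2978 and 3014 CPM with c-di-GMP, against 3215, 2947 and 2959 CPM in vehicle replicates 1, 2 and 4 and 2537 CPM in vehicle replicate 3, and the groups overlapped. Its log2 fold change was -0.028 ± 0.043, and 0.13 ± 0.031 with the GC trend taken out (edgeR adjusted p = 0.669 and 0.00557), so the sign and the call of ACTG1 depend on that correction. Its value was 0.037 ± 0.15 with all 8 libraries.

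Genes for proteins that bind actin monomers or cut filaments were more often higher than lower. Of 9, 4 were higher without correction (44.4%, against 13.5% of all genes: PFN1, CFL2, TMSB4X and TMSB10), 1 was lower (11.1%, against 16.2%: GSN) and 4 did not pass. GC-corrected 6 were higher (66.7%, against 8.58%) and 1 lower (11.1%, against 6.62%). Profilin 1, PFN1 (ENSG00000108518, chromosome 17, 4945652 to 4949061), which hands ATP-actin to growing filament ends, stood at 635, 633, 714 and 676 CPM with c-di-GMP, against 534, 576 and 524 CPM in vehicle replicates 1, 2 and 4. Vehicle replicate 3 held 1607 CPM, above all others, while the 4 c-di-GMP libraries lay above the other vehicle libraries. PFN1 had a log2 fold change of 0.28 ± 0.047 and 0.45 ± 0.045 GC-corrected (edgeR adjusted p = 6.77e-05 and 2.36e-07), and -0.29 ± 0.38 with all 8 libraries. The 5 listed processed pseudogenes of PFN1 together held 0.666% to 1.18% as many counts as the gene in the 7 libraries. Cofilin 2, CFL2 (ENSG00000165410, chromosome 14, 34706769 to 34714823), a severing protein best known from muscle, stood at 106, 97.0, 102 and 104 CPM with c-di-GMP, against 83.1, 83.5 and 87.5 CPM in vehicle replicates 1, 2 and 4 and 125 CPM in vehicle replicate 3. Again the groups did not overlap without vehicle replicate 3, with log2 fold changes of 0.27 ± 0.046 and 0.14 ± 0.039 GC-corrected (edgeR adjusted p = 9.90e-05 and 0.0149). CFL2 kept its sign with all 8 libraries, at 0.11 ± 0.15, and its GC-corrected call was lost without c-di-GMP replicate 1 or vehicle replicate 2 or 4, at 0.11 to 0.14.

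The beta-thymosins, small proteins that sequester actin monomers, were higher together in the 7 libraries. TMSB10 (ENSG00000034510, chromosome 2, 84905625 to 84906675) stood at 1028, 989, 1101 and 1059.6 CPM with c-di-GMP, against 859, 962 and 954 CPM in vehicle replicates 1, 2 and 4, with no overlap. Its log2 fold change was 0.17 ± 0.046 and 0.25 ± 0.044 GC-corrected (edgeR adjusted p = 0.00637 and 2.66e-04). TMSB4X (ENSG00000205542, chromosome X, 12975108 to 12977227) stood at 2084, 1893, 2063 and 2031 CPM with c-di-GMP, against 1702, 1955 and 1797 CPM in the same vehicle libraries. Here c-di-GMP replicate 2 lay below vehicle replicate 2, so the groups overlapped. TMSB4X had a log2 fold change of 0.15 ± 0.047 and 0.21 ± 0.043 GC-corrected (edgeR adjusted p = 0.0197 and 0.00145). The uncorrected call was lost without c-di-GMP replicate 1, 3 or 4 or vehicle replicate 1 or 4, at 0.10 to 0.14. Vehicle replicate 3 held 16831 CPM of TMSB10 and 16169.8 CPM of TMSB4X, 18.2 and 8.90 times the mean of the other vehicle libraries. With all 8 libraries the log2 fold changes of the thymosins had the other sign, at -2.23 ± 1.05 and -1.42 ± 0.79.

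Gelsolin, GSN (ENSG00000148180, chromosome 9, 121207794 to 121332843), which severs and caps filaments in response to calcium, was the member of this role that fell. It stood at 131, 124, 125 and 127 CPM with c-di-GMP, against 165, 135 and 148 CPM in vehicle replicates 1, 2 and 4 and 189 CPM in vehicle replicate 3. All 4 c-di-GMP libraries lay below all 4 vehicle libraries, the nearest being vehicle replicate 2. The log2 fold change was -0.24 ± 0.053 and -0.23 ± 0.045 GC-corrected (edgeR adjusted p = 0.00131 and 8.15e-04), and it ran from -0.31 without vehicle replicate 2 to -0.16 without vehicle replicate 1. Of the other members, cofilin 1 (CFL1) and the capping protein subunit CAPZB passed with the GC correction only, at 0.21 ± 0.031 and 0.13 ± 0.032, beside 0.061 ± 0.042 and 0.065 ± 0.041 without it. PFN2, at 0.16 ± 0.072 and 0.056 ± 0.066 GC-corrected, and destrin (DSTN), at 0.10 ± 0.042 and 0.004 ± 0.033, passed in neither fit. CFL1, CAPZB, PFN2 and DSTN had log2 fold changes of -0.23 ± 0.24, -0.050 ± 0.13, 0.058 ± 0.14 and -0.75 ± 0.51 with all 8 libraries. Exons of CFL1 overlap those of genes on the other strand over 19.0% of their length, and the strand setting of the counting is not given in the sources used here, so reads of these genes cannot be told apart.

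Genes of branched nucleation were higher or did not pass, and none kept a call once the GC trend was taken out. Of 10, 4 were higher (40%, against 13.5% of all genes) and 0 lower (against 16.2%) in the 7 libraries. GC-corrected 0 passed in either direction, against 8.58% higher and 6.62% lower over all genes. The Arp2/3 complex holds the actin-related proteins ACTR2 and ACTR3 and a set of ARPC subunits. ARPC3 (ENSG00000111229, chromosome 12, 110434825 to 110450422) stood at 155, 146, 161 and 167 CPM with c-di-GMP, against 134, 137 and 143 CPM in vehicle replicates 1, 2 and 4 and 942 CPM in vehicle replicate 3. ACTR2 (ENSG00000138071, chromosome 2, 65227753 to 65271253) stood at 398, 415, 397 and 418 CPM, against 336, 381 and 372 CPM and 154 CPM in the same order of vehicle libraries. Without vehicle replicate 3 the groups did not overlap for either gene, and ACTR2 was also above vehicle replicate 3. Their log2 fold changes were 0.19 ± 0.047 and 0.16 ± 0.045 (edgeR adjusted p = 0.00349 and 0.00768), and 0.060 ± 0.039 and 0.034 ± 0.032 GC-corrected (0.342 and 0.547). ARPC5 (ENSG00000162704, chromosome 1, 183620846 to 183635757) held 292, 291, 299 and 312 CPM with c-di-GMP, against 261, 271 and 281 CPM in vehicle replicates 1, 2 and 4 and 759.9 CPM in vehicle replicate 3. ACTR3 (ENSG00000115091, chromosome 2, 113889960 to 113962596) held 282, 276, 289 and 286 CPM, against 244, 266 and 264 CPM and 331 CPM. These, too, were free of overlap without vehicle replicate 3, at 0.14 ± 0.042 and 0.13 ± 0.042 (edgeR adjusted p = 0.0170 and 0.0201), and stood at 0.013 ± 0.033 and -0.009 ± 0.031 GC-corrected. The call of ARPC5 was lost without c-di-GMP replicate 4, at 0.11, and that of ACTR3 without c-di-GMP replicate 1, 3 or 4 or vehicle replicate 1, at 0.094 to 0.13. Once vehicle replicate 3 was counted, the log2 fold changes of ARPC3, ACTR2, ARPC5 and ACTR3 were -1.11 ± 0.68, 0.39 ± 0.27, -0.40 ± 0.36 and 0.035 ± 0.13, so that ARPC3 and ARPC5 turned sign.

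The remaining members of this role did not pass. The subunits ARPC2 and ARPC4 stood at 0.094 ± 0.041 and -0.015 ± 0.054 on the log2 scale, and the activators WASL and WASF2 and the branch stabiliser cortactin (CTTN) at -0.001 ± 0.053, -0.10 ± 0.042 and -0.087 ± 0.041. GC-corrected, ARPC2, ARPC4, WASL, WASF2 and CTTN stood at 0.018 ± 0.033, 0.056 ± 0.051, -0.12 ± 0.048, -0.034 ± 0.034 and 0.014 ± 0.030. The same genes had 0.078 ± 0.094, -1.28 ± 0.67, 0.095 ± 0.13, 0.15 ± 0.30 and 0.057 ± 0.17 with all 8 libraries. In the 7 libraries ARPC1B had the widest error of the role, -0.36 ± 0.15, at 3.45, 3.72, 4.70 and 4.40 CPM with c-di-GMP, against 5.45, 4.33 and 5.93 CPM in vehicle replicates 1, 2 and 4 and 3.67 CPM in vehicle replicate 3, and its log2 fold change was -0.15 ± 0.14 GC-corrected and -0.26 ± 0.20 with all 8. Exons of other genes cover 32.4% of the exon length of ARPC1B and 28.3% of that of ARPC4, so the counts of both are uncertain. The 4 genes that were higher have transcripts of 35.7% to 39.4% GC, below the 45.3% median of the 14 higher members.

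The crosslinkers were lower in all 3 cases in the 7 libraries, where theirs was the lowest median log2 fold change of a role. Their median with all 8 libraries was -0.16, beside -0.29 for monomer-binding genes and -0.28 for membrane linkers. The median log2 fold change of FLNA, FLNC and fascin (FSCN1) was -0.40, and -0.091 GC-corrected. Filamin A, FLNA (ENSG00000196924, chromosome X, 154348524 to 154374638), a long flexible crosslinker that also docks integrins, stood at 2869, 2979, 2751 and 2732 CPM with c-di-GMP, against 4013, 3329.8 and 3546 CPM in vehicle replicates 1, 2 and 4 and 940.1 CPM in vehicle replicate 3. Its relative FLNC (ENSG00000128591, chromosome 7, 128830377 to 128859274), best known from muscle, stood at 368, 393, 355 and 366 CPM, against 572, 457 and 505 CPM and 124 CPM. Fascin, FSCN1 (ENSG00000075618, chromosome 7, 5592823 to 5606655), which bundles the filaments of filopodia, stood at 86.0, 82.8, 81.5 and 79.3 CPM, against 116, 100.1 and 109 CPM and 51.7 CPM. In each case the c-di-GMP libraries lay below vehicle replicates 1, 2 and 4 and above vehicle replicate 3, so the groups overlapped once that library was counted. FLNC had a log2 fold change of -0.47 ± 0.055 and -0.20 ± 0.039 GC-corrected (edgeR adjusted p = 1.19e-06 and 9.42e-04). FLNA had -0.36 ± 0.052 and -0.091 ± 0.036 (adjusted p = 1.41e-05 and 0.0950), and FSCN1 -0.40 ± 0.050 and -0.054 ± 0.037 (adjusted p = 2.80e-06 and 0.372), so that only FLNC passed GC-corrected. These transcripts are rich in GC, at 62.2%, 62.3% and 65.0%. With all 8 libraries the log2 fold changes of FLNA, FLNC and FSCN1 were -0.062 ± 0.40, -0.16 ± 0.41 and -0.19 ± 0.24.

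MARCKS had the smallest adjusted p of the 46 genes in the 7 libraries, and its fall was larger with the GC trend taken out. It encodes a substrate of protein kinase C that crosslinks actin and binds phosphoinositides at the inner face of the plasma membrane (ENSG00000277443, chromosome 6, 113857362 to 113863471). MARCKS stood at 248, 232, 229.8 and 233 CPM with c-di-GMP, against 323, 291 and 322 CPM in vehicle replicates 1, 2 and 4 and 887 CPM in vehicle replicate 3. The highest c-di-GMP library lay below the lowest vehicle library. The log2 fold change was -0.41 ± 0.045 and -0.49 ± 0.040 GC-corrected (edgeR adjusted p = 4.87e-07 and 8.89e-09), and -0.50 ± 0.038 when corrected for length too. With 43.8% GC its transcript lies on the side of GC content where the median of all genes was positive. Its relative MARCKSL1 (ENSG00000175130, chromosome 1, 32333832 to 32336379) stood at 89.5, 90.4, 96.4 and 94.0 CPM with c-di-GMP, against 101, 89.4 and 99.7 CPM in vehicle replicates 1, 2 and 4 and 192 CPM in vehicle replicate 3. The groups overlapped, with log2 fold changes of -0.068 ± 0.049 and 0.13 ± 0.039 GC-corrected (edgeR adjusted p = 0.325 and 0.0313). MARCKSL1 was at -0.38 ± 0.25 with all 8 libraries. The corrected call of MARCKSL1 was lost without c-di-GMP replicate 3 or 4 or vehicle replicate 1 or 2, at 0.099 to 0.11.

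The ezrin, radixin and moesin genes, whose products link filaments to membrane proteins, did not pass in the 7 libraries. Ezrin, EZR (ENSG00000092820, chromosome 6, 158765741 to 158819412), held 359, 353, 358 and 364 CPM with c-di-GMP, against 378, 357 and 363 CPM in vehicle replicates 1, 2 and 4 and 637 CPM in vehicle replicate 3. Radixin, RDX (ENSG00000137710, chromosome 11, 109864295 to 110296722), held 173, 179.8, 166 and 175 CPM, against 158, 170.1 and 168 CPM and 68.2 CPM. For both, the c-di-GMP range and that of vehicle replicates 1, 2 and 4 overlapped, while vehicle replicate 3 lay outside, above for EZR and below for RDX. The log2 fold changes were -0.035 ± 0.040 for EZR, 0.063 ± 0.044 for RDX and 0.022 ± 0.040 for moesin (MSN), with approximate 95% intervals from -0.11 to 0.043, from -0.023 to 0.15 and from -0.056 to 0.10. GC-corrected they were -0.001 ± 0.031, -0.064 ± 0.033 and 0.037 ± 0.031, and with all 8 libraries -0.28 ± 0.21, 0.30 ± 0.27 and 0.34 ± 0.43. MSN had the highest level per length of the 3, at 177 ± 3.67 FPKM with c-di-GMP and 172 ± 3.80 FPKM with vehicle (SD, n = 4 and 3).

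**Figure D2:**
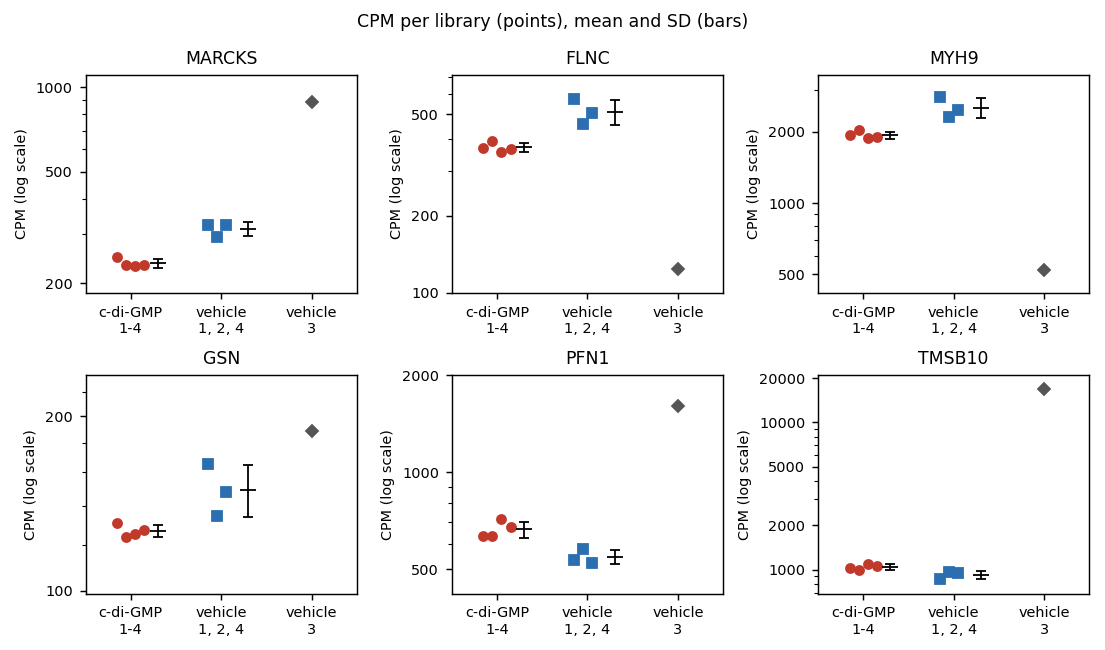
CPM on a log axis of MARCKS, FLNC, MYH9, GSN, PFN1 and TMSB10, the 6 genes called with and without GC correction in every leave-one-out fit; points are libraries and bars the mean and SD of the 4 c-di-GMP libraries and of vehicle replicates 1, 2 and 4, with vehicle replicate 3 alone on the right. The c-di-GMP points sit below vehicle replicates 1, 2 and 4 for the first 4 genes and above them for PFN1 and TMSB10, and vehicle replicate 3 lies far outside both for each gene but GSN, where it is above all others.

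Tropomyosins and calponins, which lie along filaments and govern access of myosin and cofilin, moved in different directions within their families. Of the 8 genes of the role, 3 were higher (37.5%, against 13.5% of all genes), 2 were lower (25%, against 16.2%) and 3 did not pass. Tropomyosin 3, TPM3 (ENSG00000143549, chromosome 1, 154155304 to 154194648), stood at 602, 573, 595 and 594 CPM with c-di-GMP, against 501, 544 and 515 CPM in vehicle replicates 1, 2 and 4 and 918 CPM in vehicle replicate 3. Tropomyosin 2, TPM2 (ENSG00000198467, chromosome 9, 35681992 to 35690121), stood at 24.0, 23.5, 25.7 and 26.5 CPM, against 34.6, 28.5 and 28.7 CPM and 225 CPM. TPM3 was thus higher, and TPM2 lower, in every c-di-GMP library than in vehicle replicates 1, 2 and 4. TPM3 had a log2 fold change of 0.18 ± 0.041 and 0.11 ± 0.032 GC-corrected (edgeR adjusted p = 0.00153 and 0.0186), and that of TPM2 -0.30 ± 0.072 and -0.19 ± 0.063 (0.00305 and 0.0386). With all 8 libraries TPM3 was at -0.068 ± 0.22 and TPM2 at -1.66 ± 0.72. GC-corrected, the call of TPM3 was lost without c-di-GMP replicate 1, 3 or 4 or vehicle replicate 1 or 4, at 0.10 to 0.11, and that of TPM2 without c-di-GMP replicate 1, 2 or 3 or vehicle replicate 1 or 4, at -0.22 to -0.13. TPM1 had 0.17 ± 0.053 (adjusted p = 0.0218) and 0.11 ± 0.047 GC-corrected (0.118). Its uncorrected call was lost without c-di-GMP replicate 1 or 4 or vehicle replicate 1, at 0.13 to 0.15, and other genes cover 21.4% of its exon length. TPM1 was at 0.20 ± 0.097 with all 8 libraries. TPM4, with the highest level per length of the family at 105 ± 0.248 FPKM with c-di-GMP and 102 ± 3.46 FPKM with vehicle (SD, n = 4 and 3), had a log2 fold change of 0.018 ± 0.040, 0.003 ± 0.031 GC-corrected and 0.25 ± 0.29 with all 8 libraries, and did not pass.

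Of the calponins, CNN2 fell and CNN3 rose in the 7 libraries. CNN2 (ENSG00000064666, chromosome 19, 1026581 to 1039068) stood at 158, 149, 152 and 158 CPM with c-di-GMP, against 194, 173 and 176 CPM in vehicle replicates 1, 2 and 4 and 39.2 CPM in vehicle replicate 3. CNN3 (ENSG00000117519, chromosome 1, 94896949 to 94927278) stood at 325, 310, 319.5 and 319 CPM, against 282, 296 and 292 CPM and 170 CPM. The groups did not overlap for either without vehicle replicate 3, and for CNN3 not with it either. CNN2 had log2 fold changes of -0.23 ± 0.045 and -0.11 ± 0.034 GC-corrected (edgeR adjusted p = 4.43e-04 and 0.0211), and 0.085 ± 0.43 with all 8 libraries. The GC-corrected call of CNN2 was lost without c-di-GMP replicate 3 or vehicle replicate 1 or 4, at -0.12 to -0.094. CNN3 had 0.13 ± 0.040 and 0.075 ± 0.031 (0.0132 and 0.110), and its uncorrected call was lost without c-di-GMP replicate 1 or 4, at 0.12 to 0.13. CNN3 was at 0.29 ± 0.19 with all 8 libraries. Of the transgelins, TAGLN2 passed only GC-corrected, at 0.22 ± 0.033 beside 0.082 ± 0.040 uncorrected, and had 0.012 ± 0.12 with all 8 libraries. TAGLN, at 4.56, 3.28, 4.11 and 5.85 CPM with c-di-GMP, against 6.94, 4.02 and 5.33 CPM in vehicle replicates 1, 2 and 4 and 0.894 CPM in vehicle replicate 3, overlapped between the groups. Its log2 fold change was -0.29 ± 0.18, -0.14 ± 0.17 GC-corrected and 0.036 ± 0.50 with all 8 libraries.

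Within non-muscle myosin II the main heavy chain gene MYH9 fell in the 7 libraries, while the light chain genes MYL12A, MYL12B and MYL6 rose and MYL9 did not pass without correction. Of the 9 genes of myosin II and its regulators, 3 were higher (33.3%, against 13.5% of all genes) and 2 lower (22.2%, against 16.2%), and GC-corrected 3 were higher (against 8.58%) and 3 lower (against 6.62%). MYH9 (ENSG00000100345, chromosome 22, 36281277 to 36388067), the heavy chain of myosin IIA, stood at 1937, 2031, 1878 and 1902 CPM with c-di-GMP, against 2794, 2318 and 2466 CPM in vehicle replicates 1, 2 and 4 and 519.9 CPM in vehicle replicate 3. Every c-di-GMP library lay below vehicle replicates 1, 2 and 4 and above vehicle replicate 3. The log2 fold change was -0.39 ± 0.051 and -0.21 ± 0.036 GC-corrected (edgeR adjusted p = 5.06e-06 and 2.21e-04), and -0.064 ± 0.45 with all 8 libraries. The heavy chain of myosin IIB, MYH10, passed only GC-corrected, at -0.11 ± 0.036 beside -0.11 ± 0.044 uncorrected, and that call was lost without c-di-GMP replicate 1, 3 or 4 or vehicle replicate 1 or 4, at -0.12 to -0.088. MYH10 was at 0.13 ± 0.28 with all 8 libraries.

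The regulatory light chain genes MYL12A and MYL12B lie next to each other on chromosome 18 and both rose in the 7 libraries. MYL12B (ENSG00000118680, chromosome 18, 3261479 to 3278431) stood at 303, 296, 318 and 321 CPM with c-di-GMP, against 273, 290.2 and 273 CPM in vehicle replicates 1, 2 and 4 and 1654 CPM in vehicle replicate 3. MYL12A (ENSG00000101608, chromosome 18, 3247481 to 3256236) stood at 207, 213, 221 and 219 CPM, against 180.4, 201 and 199.8 CPM and 434 CPM. The groups did not overlap without vehicle replicate 3, though by small margins. MYL12B had a log2 fold change of 0.15 ± 0.042 and 0.15 ± 0.035 GC-corrected (edgeR adjusted p = 0.0103 and 0.00418), and that of MYL12A 0.14 ± 0.045 and 0.077 ± 0.035 (0.0169 and 0.156). Both had the other sign with all 8 libraries, at -1.01 ± 0.63 and -0.24 ± 0.29. These genes are close relatives, and reads shared between them are not resolved by the deposited counts. Uncorrected, the call of MYL12B was lost without c-di-GMP replicate 4 or vehicle replicate 4, at 0.12 to 0.13, and that of MYL12A without c-di-GMP replicate 3 or 4 or vehicle replicate 1, at 0.096 to 0.13.

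The essential light chain gene MYL6 (ENSG00000092841, chromosome 12, 56158161 to 56163496) stood at 438, 407, 465 and 442 CPM with c-di-GMP, against 367, 419 and 405 CPM in vehicle replicates 1, 2 and 4, and the groups overlapped through c-di-GMP replicate 2. Its log2 fold change was 0.14 ± 0.048 and 0.17 ± 0.044 GC-corrected (edgeR adjusted p = 0.0311 and 0.00721). The uncorrected call of MYL6 was lost without c-di-GMP replicate 1, 3 or 4 or vehicle replicate 1 or 4, at 0.086 to 0.15, and the corrected without vehicle replicate 1, at 0.11. In vehicle replicate 3 MYL6 held 7098 CPM, 17.9 times the mean of the other vehicle libraries, and over all 8 its log2 fold change was -2.24 ± 1.04. MYL9, the regulatory light chain best known from smooth muscle, passed only GC-corrected, at 0.13 ± 0.038 beside -0.094 ± 0.044 uncorrected, and lost that call without c-di-GMP replicate 1 or 4 or vehicle replicate 1 or 4, at 0.095 to 0.14. Vehicle replicate 3 held 200 CPM of MYL9, which was at -0.27 ± 0.16 with all 8 libraries. Myosin light chain kinase, MYLK (ENSG00000065534, chromosome 3, 123610049 to 123884331), which phosphorylates the regulatory light chains, stood at 83.1, 94.3, 78.2 and 86.0 CPM with c-di-GMP, against 101, 91.0 and 95.6 CPM in vehicle replicates 1, 2 and 4 and 14.4 CPM in vehicle replicate 3. The groups overlapped through c-di-GMP replicate 2, and the log2 fold change of MYLK was -0.17 ± 0.055 and -0.18 ± 0.048 GC-corrected (edgeR adjusted p = 0.0225 and 0.00969). The uncorrected call of MYLK was lost without c-di-GMP replicate 1 or 3 or vehicle replicate 1, at -0.16 to -0.13, and the corrected without vehicle replicate 1, at -0.14. MYLK was at 0.18 ± 0.51 with all 8 libraries. The kinases ROCK1 and ROCK2, which act on the same light chains, had log2 fold changes of 0.023 ± 0.043 and 0.045 ± 0.047, -0.091 ± 0.034 and -0.075 ± 0.041 GC-corrected and 0.28 ± 0.30 and 0.15 ± 0.14 with all 8 libraries, and did not pass.

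Leaving out a library in turn ended part of the calls. Uncorrected, 6 of the 14 higher and 8 of the 10 lower genes kept their call in all 7 fits that left out a library. PFN1, TMSB10, GSN, FLNC, MARCKS and MYH9 kept it in all of these fits both with and without GC correction. Adding the length correction, 6 genes were called higher in all 3 fits of the 7 libraries (PFN1, CFL2, TMSB4X, TMSB10, TPM3 and MYL6) and 6 lower (GSN, FLNC, MARCKS, TPM2, CNN2 and MYH9). Over all genes, calls kept in every leave-one-out fit or in all 3 fits were not counted. Of the vehicle libraries among the 7, vehicle replicate 1 was farthest from the c-di-GMP mean for 10 of the 10 lower and 13 of the 14 higher genes. How often this held over all genes, or over the members that did not pass, was not counted. Without vehicle replicate 1, 10 of the 46 were called higher and 8 lower, against 1551 and 1889 of the 15906 genes tested.

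**Figure D3:**
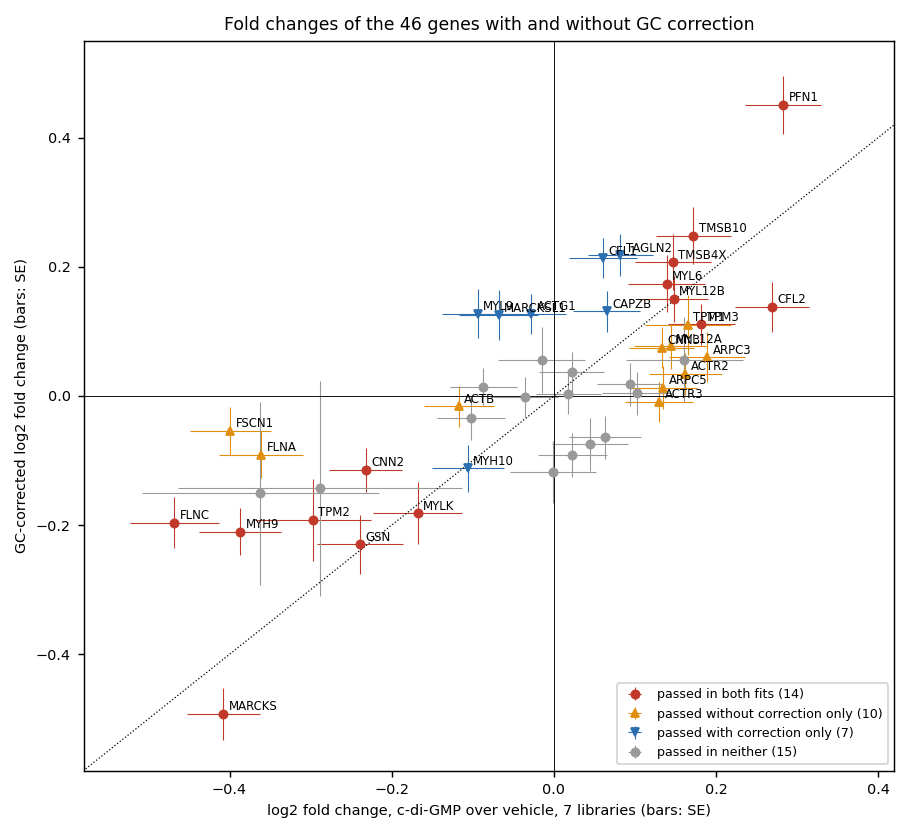
Log2 fold change, c-di-GMP over vehicle in 7 libraries, of each of the 46 genes without (x axis) and with (y axis) GC correction; bars are SE, the dotted line marks equality, and the colours and symbols show in which fit a gene passed. MARCKS lies below the line at the lower left and PFN1 above it at the upper right, while FSCN1, FLNA, ACTR2, ACTR3, ARPC3 and ARPC5 lie near 0 on the y axis.

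The fold changes of the 46 genes followed GC content much as those of all genes did. Across the 46, which are not independent replicates, the log2 fold change and the GC percent of the longest transcript had Spearman's rho of -0.559, beside -0.589 over all genes tested, and GC-corrected the value over the 46 was 0.00888. The median GC was 45.3% for the 14 higher genes, 55.65% for the 10 lower and 52.1% for the 22 that did not pass. PFN1, at 58.5% GC and higher, and MARCKS, at 43.8% and lower, stood farthest from this trend to either side. Gene length moved with the values as well: the median exon length was 3796 bases for the higher and 6643.5 bases for the lower genes. Across the 46, its rho was -0.203 with uncorrected and -0.541 with GC-corrected fold changes. No such value was computed over all genes. The part of GC content and length in these results was tested only through the corrected values given.

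**Figure D4:**
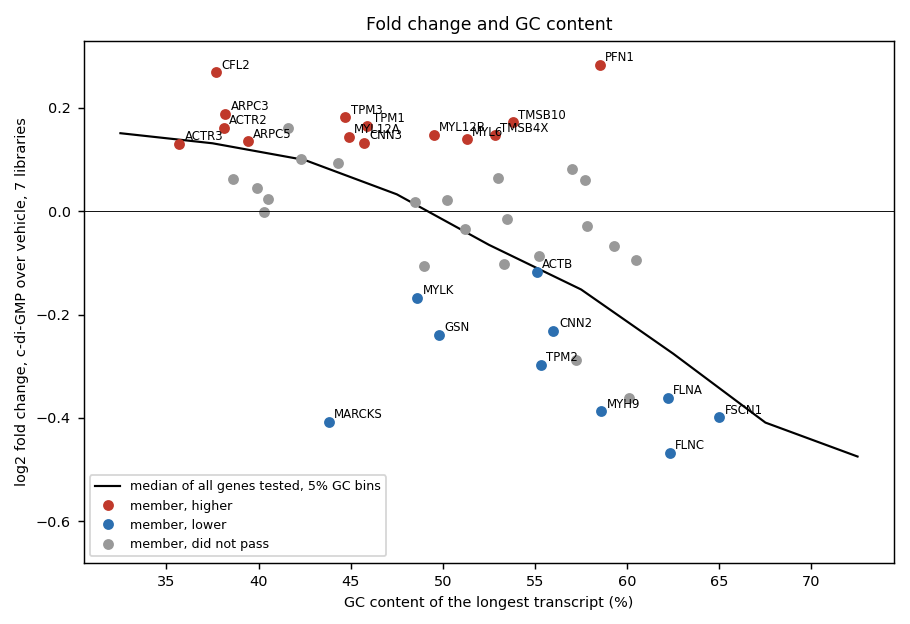
Log2 fold change, c-di-GMP over vehicle in 7 libraries, against the GC percent of the longest transcript; points are the 46 genes, coloured by their call, and the line is the median of all genes tested in steps of 5% GC. PFN1 at 58.5% GC lies far above the line, MARCKS at 43.8% far below it, and FSCN1 and ACTB lie close to it.

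Shares of paralogs within a library do not depend on the scaling between libraries and were compared next. They were not GC-corrected, and the GC content of paralogs can differ. It was 56.0% for CNN2 and 45.7% for CNN3, but 62.2% for FLNA and 62.3% for FLNC. For 16 genes the share of the summed FPKM of its pair or family was set between the groups by an exact two-sided permutation test, adjusted over the 16. None passed: with 8 libraries 3 shares had an unadjusted p of 0.0286, the smallest that 4 against 4 allow, and the smallest adjusted p was 0.152. With 4 against 3 libraries the smallest possible p was 0.0571, so no share could pass, and 8 shares did not overlap between the groups (adjusted p = 0.114 for each). MARCKS made up 52.4%, 50.5%, 48.7% and 49.6% of the MARCKS and MARCKSL1 sum with c-di-GMP, against 55.8%, 56.4% and 56.2% in vehicle replicates 1, 2 and 4 and 64.7% in vehicle replicate 3. ACTB made up 59.2%, 59.1%, 59.2% and 58.7% of the cytoplasmic actins with c-di-GMP, against 60.5%, 60.3% and 60.8% in the same vehicle libraries and 74.0% in vehicle replicate 3. TPM2 was the third share without overlap in all 8 libraries, at 3.92% to 4.32% of the tropomyosins with c-di-GMP and 4.75% to 30.9% with vehicle. CNN2 stood at 27.5%, 27.3%, 27.1% and 27.9% of the CNN2 and CNN3 sum with c-di-GMP, against 34.9%, 31.3% and 31.9% in vehicle replicates 1, 2 and 4, but at 15.2% in vehicle replicate 3. The other 4 shares without overlap in the 7 libraries were those of FLNA, TPM3, TPM4 and MYH9. FLNA made up 87.0% ± 0.231 of the filamin sum with c-di-GMP and 86.2% ± 0.253 with vehicle (SD, n = 4 and 3), and MYH9 93.2% ± 0.103 and 94.4% ± 0.348 of its sum with MYH10.

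Vehicle replicate 3 differed from the other vehicle libraries in every one of the 46 genes, which all lay outside the range of vehicle replicates 1, 2 and 4. In it 24 genes lay above all 7 other libraries and 20 below them. The 66 other genes of the actin cytoskeleton described below were much the same. Of these, 62 lay outside that range, 19 above all 7 other libraries and 40 below them. No such count was made over all genes. More than 2-fold above the mean of the other vehicle libraries were 12 of the 46, against 23.6% of all genes tested, and under 50% of that mean were 14 of the 46, against 27.6%. The highest were TMSB10 at 18.2 times, MYL6 at 17.9 times, TMSB4X at 8.90 times and TPM2 at 7.35 times that mean. At the other end, the mean of the other vehicle libraries was 6.65 times the level in vehicle replicate 3 for MYLK, 6.08 times for TAGLN, 4.86 times for MYH9 and 4.62 times for CNN2. Across the 46 the ratio fell with gene length, with Spearman's rho of -0.53. TMSB10, at 496 bases, is the shortest of the 46 genes and MYLK, at 22167 bases, the longest. Without TMSB4X, TMSB10 and MYL6, the other members took 2.44% to 2.47% of the counts with c-di-GMP, 2.55% to 2.73% in vehicle replicates 1, 2 and 4 and 1.82% in vehicle replicate 3.

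**Figure D5:**
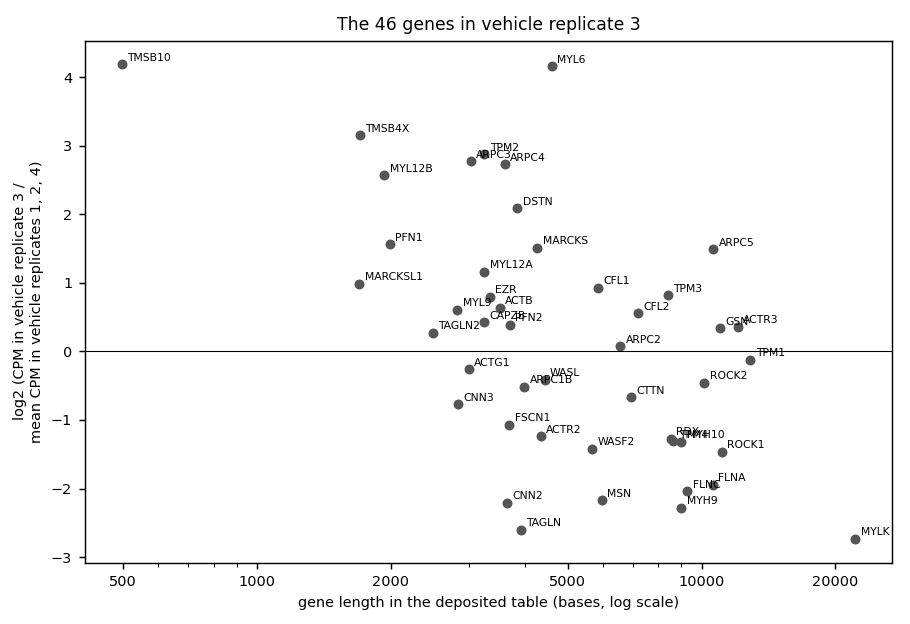
Log2 of the CPM in vehicle replicate 3 over the mean CPM of vehicle replicates 1, 2 and 4 for each of the 46 genes, against gene length on a log axis. TMSB10 and MYL6 lie at the top with 18.2 and 17.9 times the mean, and MYLK, TAGLN and MYH9 at the bottom.

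A search for the CArG box, the sequence that SRF binds, was made in promoters because SRF controls actin genes, and the matching stretches are printed to show the sequence the count rests on. RefSeq promoters (GRCh38.p14, from 250 bases before to 50 bases after a start) were at hand for 38 of the 46 genes, and those of ACTB, PFN2, WASF2, CTTN, ARPC1B, FSCN1, TAGLN and MYL9 were not used here. The motif reads the same on both strands, with a pair of C, 6 A or T in any order and a pair of G, and overlaps no other motif searched. It was found in 6 of 60 promoters of these genes (10.0%), against 454 of 35116 promoters in the table (1.29%), and in 6 of the 38 genes (15.8%), against 1.6% of all genes in it. The 100 bases around each match follow, 5′ to 3′, with the box in capitals.
FLNA, chrX:154374674-154374773, minus strand: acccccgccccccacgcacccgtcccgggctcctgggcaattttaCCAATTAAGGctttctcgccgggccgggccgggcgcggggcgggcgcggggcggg
CNN2, chr19:1026474-1026573, plus strand: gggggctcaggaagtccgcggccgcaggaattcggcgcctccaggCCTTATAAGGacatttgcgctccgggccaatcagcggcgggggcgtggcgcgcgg
MYLK, chr3:123620588-123620687, minus strand: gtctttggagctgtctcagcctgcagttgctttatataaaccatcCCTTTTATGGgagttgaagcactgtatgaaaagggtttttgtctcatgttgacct
ACTG1, chr17:81512839-81512938, minus strand: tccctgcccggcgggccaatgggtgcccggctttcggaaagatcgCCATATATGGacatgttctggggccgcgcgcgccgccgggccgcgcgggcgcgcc
ROCK2, chr2:11345456-11345555, minus strand: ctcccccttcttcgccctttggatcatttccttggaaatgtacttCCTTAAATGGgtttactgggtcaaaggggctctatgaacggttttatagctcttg
TPM4, chr19:16067320-16067419, plus strand: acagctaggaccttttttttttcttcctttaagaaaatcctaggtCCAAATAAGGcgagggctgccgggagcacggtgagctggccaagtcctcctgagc
The box begins 94 bases before the start in FLNA, MYLK and ACTG1, 89 before it in CNN2, 73 in ROCK2 and 173 in TPM4. The start used for MYLK lies inside the gene, so its promoter serves a shorter transcript, and the deposited counts do not separate transcripts. The starts used for ACTG1, ROCK2 and TPM4 also lie inside the bounds of their genes, and those for FLNA and CNN2 just inside them. ROCK2 and TPM4 have further promoters that held no match. Of these 6 genes 0 were higher and 3 lower in the 7 libraries (FLNA, CNN2 and MYLK), against 14 higher and 5 lower of the 32 genes without a match. GC-corrected 1 was higher (ACTG1) and 2 lower (CNN2 and MYLK), against 11 and 6 of the 32. Over all genes 13.5% were higher and 16.2% lower, and 8.58% and 6.62% GC-corrected. Their median log2 fold change was -0.098, beside 0.088 for the 32 genes whose promoters held no match. SRF itself stood at 148, 147, 146 and 146 CPM with c-di-GMP, against 191, 163 and 169 CPM in vehicle replicates 1, 2 and 4 and 109 CPM in vehicle replicate 3, with log2 fold changes of -0.25 ± 0.048 and -0.016 ± 0.032 GC-corrected (edgeR adjusted p = 3.53e-04 and 0.799). Its cofactor MRTFA had -0.42 ± 0.071 and -0.18 ± 0.057 (7.94e-05 and 0.0335), and MRTFB -0.010 ± 0.063 and did not pass. A match describes the sequence only, and whether SRF binds there was not tested.

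Other genes of the actin cytoskeleton, 66 in all, also differed in both directions. Among them 13 were higher (19.7%) and 19 lower (28.8%) in the 7 libraries, against 13.5% and 16.2% of all genes, and GC-corrected 7 were higher (against 8.58%) and 13 lower (against 6.62%). Of 18 genes of nucleation and elongation 3 were higher and 3 lower, of 15 of turnover and capping 4 and 6, and of 14 crosslinkers and linkers 3 and 4. The small GTPase RAC1, which steers protrusion, was higher, at 0.23 ± 0.044 and 0.16 ± 0.035 GC-corrected (edgeR adjusted p = 3.78e-04 and 0.00261). RAC1 stood at 434, 431, 456 and 463 CPM with c-di-GMP, against 359.8, 402 and 379 CPM in vehicle replicates 1, 2 and 4 and 730.2 CPM in vehicle replicate 3. The formin DIAPH3 was higher by 0.23 ± 0.045 and 0.12 ± 0.036 GC-corrected. On the lower side VASP, which protects growing filament ends, stood at 116, 116, 117 and 114 CPM with c-di-GMP, against 164, 148 and 148 CPM in vehicle replicates 1, 2 and 4 and 391 CPM in vehicle replicate 3. Its log2 fold change was -0.41 ± 0.045 and -0.22 ± 0.032 GC-corrected (edgeR adjusted p = 4.87e-07 and 4.15e-05). The coronin CORO1B, at -0.37 ± 0.045, passed only uncorrected, and the myosin MYO9B, at -0.39 ± 0.058 and -0.16 ± 0.040 GC-corrected, in both fits. Of the 66, edgeR called 0 with all 8 libraries, where 5 (against 6.23% of all genes) had an unadjusted p under 0.05. DESeq2 called 3 (against 0.869%), CORO1B and DIAPH3 among them.

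Per gene length, the most abundant of the 46 transcripts was TMSB10, at 2101 ± 93.7 FPKM with c-di-GMP and 1842 ± 113 FPKM with vehicle (SD, n = 4 and 3). ACTB came next, then TMSB4X, at 1181 ± 49.6 and 1053 ± 74.5 FPKM, and ACTG1. With vehicle the levels of TMSB4X and ACTG1 differed by less than their summed spread. ARPC1B, at 1.02 ± 0.144 and 1.297 ± 0.201 FPKM, and TAGLN, at 1.13 ± 0.271 and 1.37 ± 0.370 FPKM, were the least abundant. Lengths in the deposited table are those of all exons of a gene together, which lowers the FPKM of genes with many alternative exons.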

How the data were processed

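RNA-seq was made of 4 c-di-GMP and 4 vehicle libraries. Per the labels' protocols, total RNA was taken with TRIzol and libraries were made with a NEBNext Ultra kit. The deposited count table holds the authors' raw read counts per gene, and per the submitters' processing notes reads passed through CASAVA 1.8, fastp, HISAT2 2.0.5 and featureCounts 1.5.0-p3, with DESeq2 1.20.0 also named. The FPKM values, fragments scaled to gene length and library size, were deposited by the authors as well. The count and FPKM tables share 14707 of 16383 genes, and the origin of that difference is not stated. The processing notes name a mouse build, whereas all 16383 genes of the count table carry the human IDs and GRCh38 coordinates of GENCODE release 29. The files were used as human, and 22 gene names turned into dates were restored from their IDs. Strand setting and the handling of multiply mapped reads are not given in the sources used here.

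Libraries held 16151360 to 18040010 counts. Counts were tested with edgeR 4.0.16 (R 4.3.3): TMM scaling, filterByExpr with a minimum count of 10 and a minimum total of 15, the quasi-likelihood F test on all genes, and Benjamini-Hochberg adjustment over all genes tested, with a threshold of 0.05. It was fitted on 8 libraries and on 7 without vehicle replicate 3. CPM values of every library use the TMM factors of the 8-library fit. Those of the markers and of a count of 3 use library totals instead. For the GC correction, each library's deviation from the mean log2 CPM was smoothed against the GC percent of the longest transcript (lowess span 0.3) and entered as an offset. The length correction did the same for gene length. Shares of paralogs were computed from FPKM and compared by exact permutation over libraries. DESeq2 1.42.0, limma 3.58.1 (voom, and on log2 of FPKM plus 1 or 0.1), other scalings and filters, a replicate block and leaving out each library were alternatives. The scripts were tested on simulated data.

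The members and the lists of other genes were chosen with earlier results of these data known. Full values were given for ACTB, ACTG1 and up to 4 members of each role with the smallest p in the 7-library fit, and log2 fold changes for the rest. All members called with and without GC correction were named, as were up to 3 of the other genes in each direction. SRF and MRTFA, MRTFB (listed under older names in the choice of genes) were described with the promoter search. MYH14 was not analysed here, and the counts of one set and the values of one gene among the other genes are not reported here. Libraries of equal replicate number did not deviate together.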

Additional observations from a re-analysis of the deposited data

Results flagged for a closer look

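Among the 27 members described library by library, the vehicle group of 19 held a library far from the other 3, by Dixon's ratio of gap to range at its 95% critical value, and it was vehicle replicate 3 each time. Chance flags about 1 in 20 groups, and 54 groups were examined. In 15 of the 19 it stood high. Those genes were ACTB at 8506.8 CPM, PFN1 at 1607.3 CPM, CFL2 at 124.6 CPM, TMSB4X at 16169.8 CPM and TMSB10 at 16830.7 CPM. ARPC3 stood at 942.3 CPM and ARPC5 at 759.9 CPM, MARCKS at 886.7 CPM, MARCKSL1 at 192 CPM and EZR at 637 CPM. TPM3 stood at 918 CPM, TPM2 at 224.6 CPM, MYL6 at 7098.4 CPM, MYL12B at 1654.3 CPM and MYL12A at 434.1 CPM. In the other 4 it stood low: RDX at 68.21 CPM, CNN2 at 39.16 CPM, CNN3 at 170 CPM and MYLK at 14.39 CPM. In the c-di-GMP group, MARCKS in replicate 1 was the 1 value that stood apart, at 247.8 CPM above 3 libraries at 229.8 to 232.7 CPM.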

How the results depend on the processing

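With all 8 libraries 0 of the 46 members were called, and the count reached 0 to 24 when a library was left out, 24 without vehicle replicate 3 and 0 without any other. With 7 libraries the 14 higher members became 6 to 16 and the 10 lower 8 to 13 on leaving out a library, the 6 and a 9 being the counts without c-di-GMP replicate 4 and 1. Over all genes these fits called 1354 to 2169 higher and 1889 to 2657 lower, of 15523 to 15916 genes tested. GC-corrected leave-one-out fits, chosen after seeing the data, gave 9 to 14 higher (9 without vehicle replicate 1), 4 to 11 lower (6 and 5 without c-di-GMP replicates 1 and 3, 4 and 5 without vehicle replicates 1 and 4) and, of the other 66 genes, 12 to 21 called (16, 21, 16 and 13 without c-di-GMP replicates 1 to 4, and 12, 21 and 12 without vehicle replicates 1, 2 and 4). Over all genes the GC-corrected fits called 866 to 1456 higher and 610 to 1182 lower, of 15523 to 15916 genes tested. The 10 lower members became 6 with the GC and length correction. The 32 calls among the other genes became 20 with the GC correction and 14 with the GC and length correction. Replicate numbers did not pair the libraries (correlations of deviations from -0.058 to 0.18 with 8 and from -0.0088 to 0.015 with 7): with a replicate block 11 members were higher and 9 lower, and with GC correction and replicate block 10 higher, 4 lower and 14 of the other genes called. Of all 15647 genes tested, 1788 were higher and 2305 lower with the block, and 917 and 681 with GC correction and block. In all, 95 of 115 counts under an alternative stayed within 1.5 times, 8 of them counts of shares that could not pass with 7 libraries. Others were the 8-library count of 0 members. There edgeR and limma called 0 of all genes in every fit that held vehicle replicate 3. DESeq2 called 14 higher and 10 lower in the 7 libraries, against 1867 and 2175 of all 15647 genes, 3337 of which had no adjusted p. No share of paralogs passed with 8 libraries, from FPKM or from counts, and with a library left out none could pass.

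The sign of ACTG1 turned with GC correction (0.13), with GC and length correction (0.085) and with GC correction and replicate block (0.13), that of MARCKSL1 with GC correction (0.13), and that of ACTR3, to -0.009 and -0.024, with GC correction without and with the replicate block. Beside 8 libraries, the leave-one-out values of log2 fold changes that turned without vehicle replicate 3 ran from -0.45 to 0.28 for PFN1, -2.58 to 0.17 for TMSB10, -1.71 to 0.15 for TMSB4X, -1.37 to 0.19 for ARPC3, -0.55 to 0.14 for ARPC5, -0.23 to 0.26 for CNN2, -0.16 to 0.18 for TPM3, -1.25 to 0.15 for MYL12B, -0.37 to 0.14 for MYL12A, -0.17 to 0.35 for MYLK and -2.59 to 0.14 for MYL6. The causes were not tested. ARPC1B and TAGLN, the members of lowest depth, had SEs of 0.15 and 0.18 on the log2 scale in the 7 libraries. Their log2 fold changes of -0.36 and -0.29 did not pass, so differences of that size could go undetected there.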
